A study of Salmo salar with 20 samples.

Results

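Genes of lipid and steroid metabolism were followed in the distal intestine of Atlantic salmon that had received soyasaponins together with 1 of 5 plant protein sources. The genes are the entries that the study listed under lipid and steroid metabolism in its table of metabolic genes. Probes carry no gene names in the files. An entry was therefore placed on the 1 probe that, over the 4 fish on pea protein concentrate in the processed ratios of the authors, had its mean fold change and its SE within 0.0051. This gave 39 of the 41 entries their own probe, among 21322 unique probes on the array. Peroxisome proliferator-activated receptor gamma matched 2 probes and arylacetamide deacetylase shared its probe with an entry of another group, so both were dropped. The widest gap among the matches was 0.00498, and the nearest probe outside the limit lay at 0.00737. The name of each gene below is that of the entry, 38 of which were listed as lower and 1 as higher. As a check, GenBank accessions in the study's list of qPCR genes led to 4 entries on the array, and for 2 of these they led to the probe found by its values. One of the 2 is a member, fatty acyl-CoA hydrolase, medium chain. For MHC class I antigen and sulfate transporter, the other 2 entries, the check did not lead to such a probe. Intestinal fatty acid-binding protein, a member in the same list, could not be checked, since its entry there was not found on the array. The identifiers of 35 members start with Ssa and those of 4 with Omy.

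Each of the 20 arrays compared RNA of a single fish on a diet with saponins with pooled RNA of 12 fish that ate this diet without added saponins. The groups were PPC + S (pea protein concentrate), CG + S (corn gluten), HBM + S (horse bean meal), RSM + S (rapeseed meal) and SFM + S (sunflower meal), with 4 fish each. All saponin diets held 2 g/kg of the soyasaponin extract, and salmon post smolts of 270 g on average were fed for 80 days in seawater tanks. With 1 pool per diet, a test against 0 leaves out the spread between control fish. Each diet had 2 tanks, 2 fish of each were used, and the tank of a fish is not labelled, so all 4 fish were treated as independent, which can make p too small. Each diet had a slide of its own for its arrays, so that slide and diet cannot be told apart. The samples were pieces of whole intestinal wall, in which fewer cells of a type and less RNA per cell cannot be told apart.

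The intestine of fish absorbs fatty acids, monoacylglycerols, sterols and fat-soluble vitamins through its enterocytes, and how much of this takes place in the distal part was not measured here. Inside enterocytes fatty acids are bound by carrier proteins and rebuilt to triacylglycerols, and the fat leaves the cell in lipoprotein particles built on apolipoproteins. Part of it is broken down by oxidation in mitochondria and peroxisomes, while cholesterol is also the starting point of bile acids and steroids.

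Values are log2 ratios of fish over pool, so that -1 is a level of RNA lower by 2-fold. The direction of the ratios is not settled by the stated dyes. The labels give Cy5 for the fish and Cy3 for the pool on all arrays, but only arrays 1 and 2 of each diet ran with the authors' processed ratios, and arrays 3 and 4 ran against them. Each array correlated with a column of its own diet with a Pearson's r whose size lay between 0.993 and 0.998 across 17348 spots, which are not independent replicates. The 10 opposed arrays were turned. Left as stated, arrays 1 and 2 of PPC + S correlated with arrays 3 and 4 at a mean r of -0.53, between -0.56 and -0.48. Turned, the corresponding mean was 0.53 in PPC + S, and it was -0.03 for CG + S, -0.25 for HBM + S, -0.04 for RSM + S and -0.19 for SFM + S. Every sign given below rests on this turn, and for the main counts and medians over the genes the value with the dyes as stated is given too. Fish are numbered as in the scanner files. The best-matching column of processed ratios bore the same fish number for 8 of 20 arrays, so a fish numbered here may carry another number there.

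In PPC + S the lipid genes lay below the pool almost throughout. The median of the 39 mean log2 ratios was -1.17, against 0.00 for all probes tested, and the 4 fish had medians of -1.82, -1.36, -0.83 and -0.79. Below the pool in 4 of 4 fish were 38 members, while StAR-related lipid transfer protein 5 was above it in all 4. Because the members were chosen by these same PPC + S values, they are given as a description and without a test. The study called a gene changed when it passed both a fold change of 1.6 and an unadjusted p of 0.05, and here the fold alone was applied. Lower by more than 1.6-fold were 37 members, where 4.56% of the 17143 probes tested were lower by that much, and 1 member was higher by more than that (2.79% of probes). Being below 0 in 4 of 4 fish held for 18.6% of all probes and being above 0 in all 4 for 19.6%. Lower by more than 2-fold were 25 members, and the share of all probes beyond this fold was not counted. In both channels of the 4 PPC + S arrays all 39 probes were well above background, and none was saturated on any array. With the dyes as stated, fish 3 and 4 change sign, so that in the mean of each member they offset fish 1 and 2. In that reading the PPC + S median was -0.40 and 9 members were lower by more than 1.6-fold, a fold for which the share of all probes is not given. A mean of the opposite sign was found for 4, and 0 lay below 0 in 4 of 4 fish (9.29% of all probes did). The 4 of opposite sign were apolipoprotein A-II at 0.13, apolipoprotein B at 0.016, lecithin retinol acyltransferase at 0.067 and 25-hydroxycholesterol 7-alpha-hydroxylase at 0.10.

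**Figure D1:**
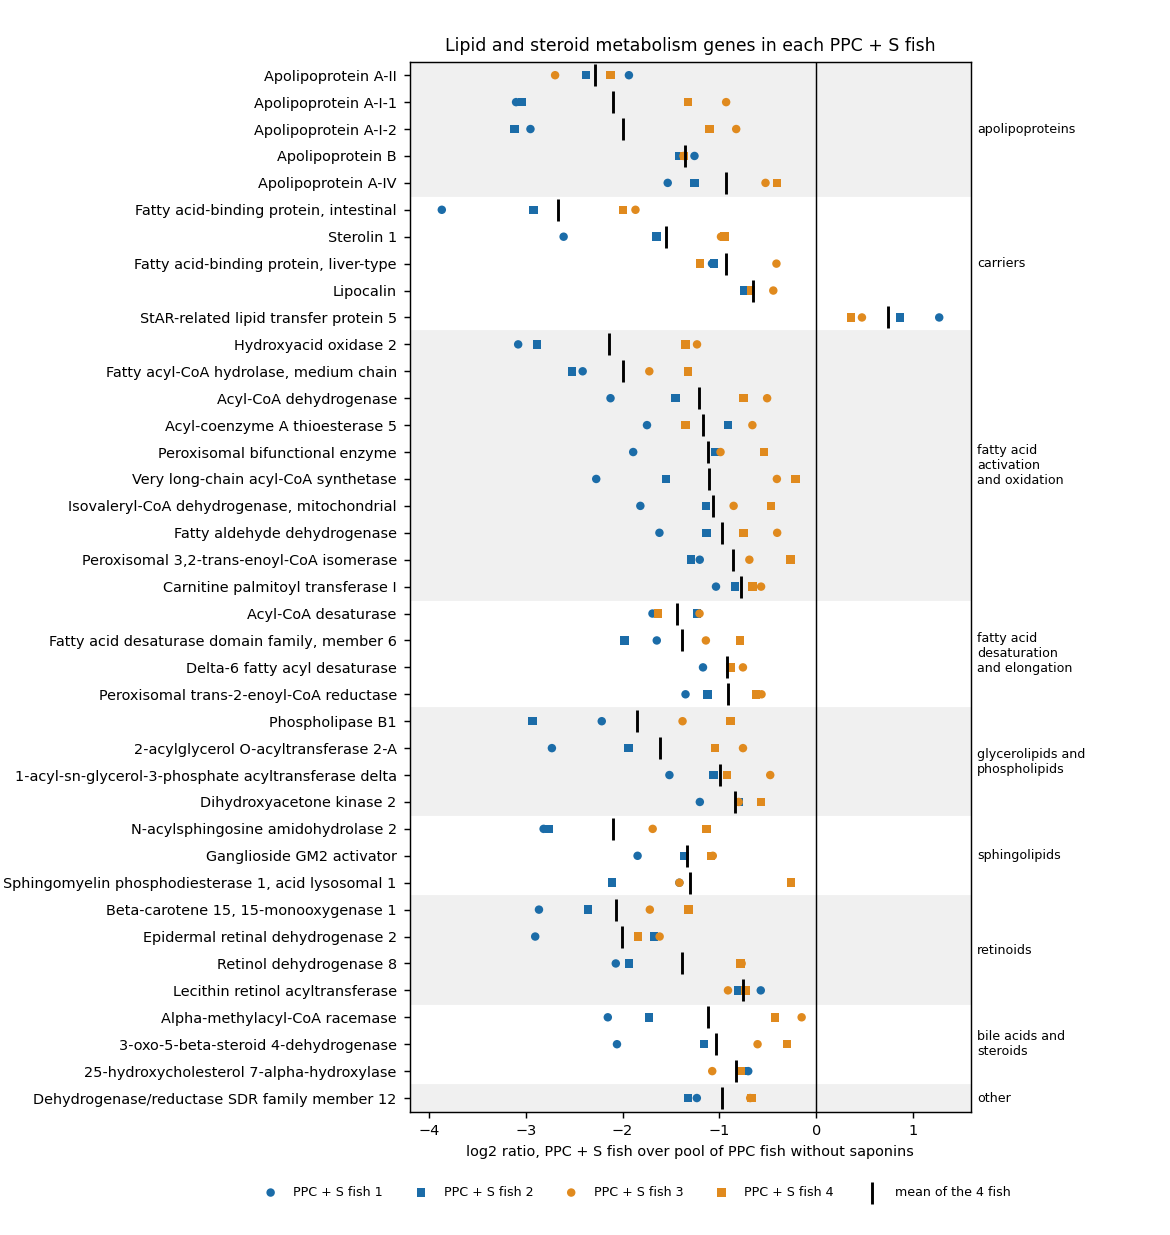
The log2 ratio of each PPC + S fish over the pool of PPC fish without saponins (horizontal axis) for the 39 genes, grouped by sub-function. Blue marks are fish 1 and 2, orange marks fish 3 and 4, and the black bar is the mean of the 4 fish, which lies between -2.66 and 0.74.

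The fish differed in how far the genes lay below the pool. Fish 1 had the lowest value for 25 of the 38 members listed as lower, fish 2 for 9, fish 3 for 3 and fish 4 for 1. Fish 1 and 2 both lay below fish 3 and 4 for 29 of the 38. The mean of fish 1 and 2 was below that of fish 3 and 4 for 34, and the median of this gap was -0.81. Of all probes tested whose PPC + S mean was below 0, 63% had fish 1 and 2 below fish 3 and 4 in the same way. These probes include falls of any size, while 37 members were lower by more than 1.6-fold. The share among probes lower by that much was not counted, so the split cannot be called particular to these genes. The log2 ratios of all 21322 probes had an SD of 0.54 and 0.50 on the arrays of fish 1 and 2. The SD was 0.31 on those of fish 3 and 4. Fish 1 and 2 are also the arrays that were not turned, so that fish and direction of the array cannot be told apart here. The median SD of a member over the 4 fish was 0.55, against 0.16 over all probes, and the median gap between the 2 spots of a member was 0.18. The probes behind the 0.16 were not matched to the members by size of change. The SD was under 0.3 for 8 of the 38 members and over 0.7 for 14.

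Markers of cell types stood apart from the pool in PPC + S as well. Of 7 enterocyte markers (among them lactase-phlorizin hydrolase, aquaporin-8 and the peptide transporter solute carrier family 15 member 1), all 7 lay below the pool, with means between -3.57 and -0.95 and a median of -1.70. The median over these 7 was -2.36, -2.52, -0.98 and -1.01 in fish 1 to 4. Of 8 leukocyte markers 7 could be tied to a probe, and all 7 lay above the pool, with means between 0.76 and 2.41, a median of 1.36 and fish medians of 2.15, 2.04, 0.51 and 0.86. All of these probes were well above background on the 4 arrays. Taking the dyes as stated, the medians were -0.59 for the enterocyte and 0.39 for the leukocyte markers. The study listed these markers on the same arrays, so their direction is not independent evidence. The enterocyte markers were all picked from entries listed as lower, and the leukocyte markers from entries listed as higher. Occludin, a tight junction protein that the study listed as higher, was not among the markers. In the other diets the enterocyte median lay between -0.23 in HBM + S and -0.02 in RSM + S, and the leukocyte median between -0.13 in CG + S and -0.03 in RSM + S. As stated, the enterocyte median ran from 0.04 in CG + S to 0.28 in HBM + S. The leukocyte median then ran from -0.20 in HBM + S to 0.20 in CG + S. Lactase-phlorizin hydrolase averaged -1.01 in SFM + S, -0.79 in HBM + S, -0.49 in CG + S and 0.42 in RSM + S. In this order solute carrier family 15 member 1 averaged -0.86, -0.63, -0.85 and 0.02. Enterocyte markers with means below 0 numbered 7 in HBM + S, 5 in CG + S and 4 each in RSM + S and SFM + S. The share of all probes with a mean below 0 lay between 48.6% in RSM + S and 51.3% in HBM + S. Left as stated, the dyes gave 0 such markers in HBM + S, 1 in RSM + S and 3 each for CG + S and SFM + S. The part of the cell types in the values of the lipid genes was not tested.

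The 5 apolipoproteins, the protein scaffolds of lipoprotein particles, had a median of -2.0 in PPC + S. Apolipoprotein A-II (identifier Ssa#S18862675), a protein of high-density lipoprotein, had log2 ratios of -1.93, -2.38, -2.7 and -2.13 in fish 1 to 4, a mean of -2.28 ± 0.33 (SD, n = 4) or 4.87-fold lower. Its 4 fish lay close to each other, and fish 1 was the closest to the pool. Apolipoprotein A-I-1 (Omy#S15286673), a form of the main protein of high-density lipoprotein, had -3.10, -3.04, -0.93 and -1.32, with a mean of -2.10 ± 1.13. Fish 1 and 2 stood well below fish 3 and 4. Apolipoprotein A-I-2 followed the same split with a mean of -2.0 ± 1.20, the largest SD of the 39. As the 2 are copies of 1 gene, their probes may share signal, which was not tested. Apolipoprotein B (Ssa#S18892500), the structural protein of chylomicrons, had the smallest SD of all members in these values, with -1.26, -1.42, -1.37 and -1.37 and a mean of -1.35 ± 0.07. It was the 1 member whose PPC + S fold moved by over 1.5 times in a setting with turned arrays, to -2.13 ± 0.14 with a normexp offset of 0 and to -2.34 ± 0.23 with scanner software ratios, where its SD was not the smallest. Apolipoprotein A-IV, which the intestine adds to chylomicrons, averaged -0.93 ± 0.55.

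Among the carriers of single lipids, intestinal fatty acid-binding protein (Ssa#S30237902), which holds long-chain fatty acids in the enterocyte, had the lowest mean of all 39 genes. It had -3.87, -2.92, -1.87 and -2.0 in PPC + S fish 1 to 4, a mean of -2.66 ± 0.93 or 6.33-fold lower. Each fish was lower than the pool by more than 3-fold in this gene. Sterolin 1, a transporter known in mammals to pump plant sterols back into the gut lumen, had -2.61, -1.65, -0.98 and -0.95, with a mean of -1.55 ± 0.78. Liver-type fatty acid-binding protein averaged -0.94 ± 0.36. Lipocalin, of a family that carries retinoids and steroids, averaged -0.65 ± 0.14 and was the 1 member listed as lower that did not pass 1.6-fold. StAR-related lipid transfer protein 5 (Ssa#GRASP223647671), which binds sterols, went the other way with 1.27, 0.87, 0.47 and 0.36, a mean of 0.74 ± 0.41 or 1.67-fold higher. Here too fish 1 and 2 were farther from the pool than fish 3 and 4.

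The 10 genes placed under fatty acid activation and oxidation had a median of -1.11 in PPC + S, and all 10 were below the pool in 4 of 4 fish. The sub-functions were set here and are not headings of the study. This one also holds enzymes that free fatty acids from coenzyme A and an enzyme of leucine breakdown. Hydroxyacid oxidase 2, a peroxisomal enzyme that oxidises hydroxy fatty acids, had -3.08, -2.89, -1.23 and -1.35, with a mean of -2.14 ± 0.98. Fatty acyl-CoA hydrolase, medium chain (Ssa#CA041487), by its name an enzyme that releases medium-chain fatty acids from coenzyme A, had -2.41, -2.52, -1.72 and -1.32, with a mean of -2.0 ± 0.57. These 2 genes stood apart from the other 8, whose means lay between -1.21 and -0.78. Acyl-CoA dehydrogenase, which starts a round of mitochondrial oxidation, averaged -1.21 ± 0.73, and isovaleryl-CoA dehydrogenase, an enzyme of leucine breakdown, -1.07 ± 0.57. Very long-chain acyl-CoA synthetase, which couples fatty acids to coenzyme A, averaged -1.11 ± 0.97, with fish 1 and 2 far below fish 3 and 4. The peroxisomal bifunctional enzyme, which takes the middle steps of peroxisomal oxidation, averaged -1.11 ± 0.56. Peroxisomal 3,2-trans-enoyl-CoA isomerase, needed for unsaturated fatty acids, averaged -0.86 ± 0.48. Acyl-coenzyme A thioesterase 5, of a family that frees fatty acids from coenzyme A, averaged -1.17 ± 0.48, and fatty aldehyde dehydrogenase, which turns fatty aldehydes into acids, -0.98 ± 0.52. Carnitine palmitoyl transferase I, which controls the entry of long-chain fatty acids into mitochondria, had the smallest change of the group at -0.78 ± 0.21.

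The 4 genes of desaturation and elongation had a median of -1.16 in PPC + S. Acyl-CoA desaturase (Ssa#GRASP223648565), which makes monounsaturated fatty acids, had -1.69, -1.23, -1.20 and -1.63, with a mean of -1.44 ± 0.26, and showed no split between fish 1 and 2 and fish 3 and 4. Fatty acid desaturase domain family, member 6 had -1.65, -1.98, -1.14 and -0.79, with a mean of -1.39 ± 0.53. Delta-6 fatty acyl desaturase, which acts in the synthesis of long polyunsaturated fatty acids, averaged -0.92 ± 0.17, and peroxisomal trans-2-enoyl-CoA reductase, an enzyme of chain elongation, -0.91 ± 0.38.

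Genes of glycerolipids and phospholipids had a median of -1.30 over 4 members. Phospholipase B1, a brush border enzyme of mammals that digests phospholipids, had -2.21, -2.93, -1.38 and -0.88 in PPC + S, with a mean of -1.85 ± 0.90. The enzyme 2-acylglycerol O-acyltransferase 2-A (Ssa#S47729694), which rebuilds triacylglycerol from absorbed monoacylglycerol, had -2.73, -1.94, -0.76 and -1.04, with a mean of -1.62 ± 0.90. Both were lower by over 3-fold on average and both had a wide spread between fish. The delta acyltransferase of 1-acyl-sn-glycerol-3-phosphate, an enzyme of the pathway to phosphatidic acid, averaged -0.99 ± 0.43, and dihydroxyacetone kinase 2, which phosphorylates dihydroxyacetone, averaged -0.84 ± 0.26.

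The 3 sphingolipid genes had a median of -1.34. N-acylsphingosine amidohydrolase 2, a ceramidase of the brush border in mammals, had -2.81, -2.76, -1.69 and -1.13 in PPC + S, with a mean of -2.10 ± 0.83. Ganglioside GM2 activator, a lysosomal helper protein of ganglioside breakdown, had -1.84, -1.36, -1.07 and -1.09, with a mean of -1.34 ± 0.36. Sphingomyelin phosphodiesterase 1, which cleaves sphingomyelin to ceramide, averaged -1.30 ± 0.77, from -2.11 in fish 2 to -0.26 in fish 4. This gene also varied most in the other diets, where its 16 fish lay between -4.11 and 2.30 with an SD of 1.93.

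The 4 retinoid genes had a median of -1.70, the lowest after the apolipoproteins in all settings with turned arrays. With the dyes as stated that order did not hold, with -0.41 for the retinoid genes and -0.46 for the apolipoproteins, against -0.58 for bile acids and steroids and -0.51 for glycerolipids and phospholipids. The sphingolipid genes then had -0.46 and those of fatty acid activation and oxidation -0.40. Desaturation and elongation had -0.21 and the carriers -0.13. Beta-carotene 15, 15-monooxygenase 1, which splits beta-carotene to retinal, had -2.86, -2.36, -1.72 and -1.32 in PPC + S, with a mean of -2.06 ± 0.68. Epidermal retinal dehydrogenase 2, an enzyme of retinol oxidation, had -2.90, -1.68, -1.62 and -1.84, with a mean of -2.01 ± 0.60. For these 2 genes each of the 4 fish was lower than the pool by more than 2-fold. Retinol dehydrogenase 8, known from the retina of mammals, averaged -1.39 ± 0.71. Lecithin retinol acyltransferase, which stores retinol as esters, averaged -0.75 ± 0.14, with a spread as narrow as that of lipocalin.

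The 3 genes of bile acids and steroids had a median of -1.03. Alpha-methylacyl-CoA racemase, which prepares the side chain of bile acids, had -2.15, -1.73, -0.15 and -0.42 in PPC + S, with a mean of -1.11 ± 0.98. Fish 3 was close to its pool in this gene. The probe of 3-oxo-5-beta-steroid 4-dehydrogenase, a reductase of steroids and bile acid precursors, had -2.06, -1.16, -0.61 and -0.30, with a mean of -1.03 ± 0.77. The oxysterol enzyme 25-hydroxycholesterol 7-alpha-hydroxylase (Ssa#GRASP209154325) had -0.70, -0.75, -1.07 and -0.78, with a mean of -0.83 ± 0.17. It did not share the split between fish 1 and 2 and fish 3 and 4 of the other 2. Dehydrogenase/reductase SDR family member 12, which was placed in no sub-function, had -1.23, -1.32, -0.68 and -0.67, with a mean of -0.98 ± 0.35.

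**Figure D2:**
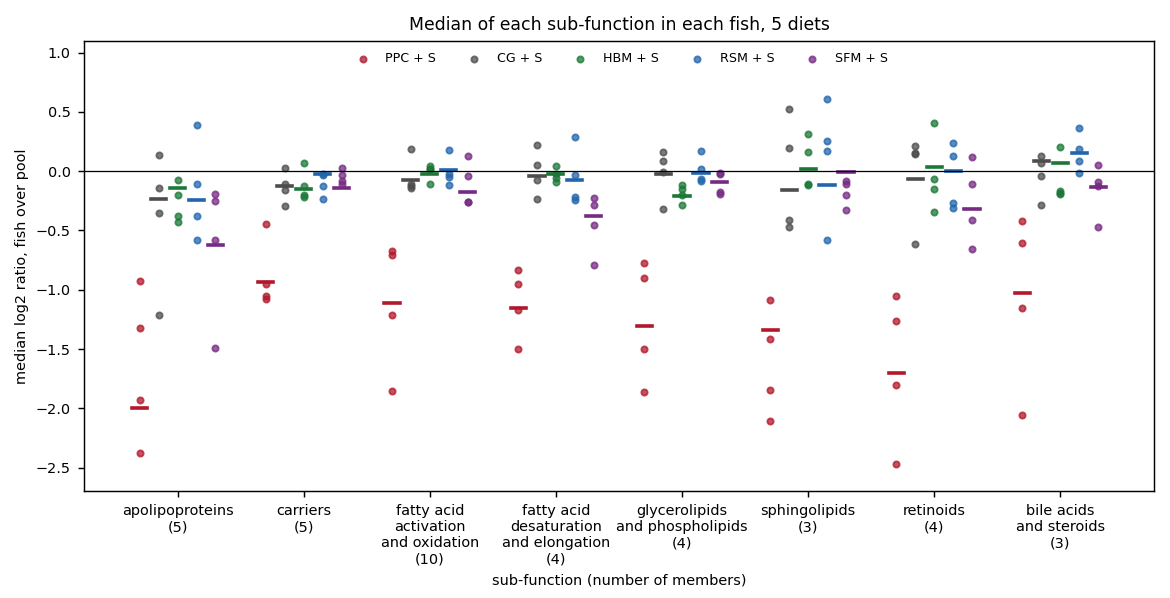
Median log2 ratio of fish over pool (vertical axis) of the members of each sub-function, with the number of members in brackets. Points are single fish and bars are the medians of the means of 4 fish. PPC + S has bars between -2.0 and -0.94, and in the other diets the lowest is that of the apolipoproteins in SFM + S at -0.62.

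The rule did not use the arrays of the other 4 diets, so there the members were tested. The question was whether saponins changed these genes with any of the other protein sources. Each diet was tested alone against 0 with limma over the 17143 probes, and a gene counted as changed with a fold over 1.6 and a Benjamini-Hochberg adjusted p under 0.05. In CG + S 0 of the 39 members passed, and 0.0175% of all probes did. Likewise 0 members passed with HBM + S (0.0117% of probes), RSM + S (0.0175%) and SFM + S (0.0117%). At the same fold and an unadjusted p under 0.05, limma called apolipoprotein B in CG + S (1 member, 0.21% of probes), apolipoprotein A-II with HBM + S (1 member, 0.28%) and acyl-coenzyme A thioesterase 5 with RSM + S (1 member, 0.467%). For SFM + S it called 3 members (0.28%), namely apolipoproteins A-II and B and acyl-CoA desaturase. Without adjustment the methods' t-test also called 3 members for SFM + S, and 0 for each of the other 3 diets. When the dyes were left as stated, limma found 0 members past both limits in each of the 4 diets. The members had a median of -0.09 for CG + S, -0.04 for HBM + S, -0.04 for RSM + S and -0.15 for SFM + S. With the dyes as stated the medians were 0.01 for CG + S, 0.06 for HBM + S, 0.04 for RSM + S and -0.02 for SFM + S.

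By sign alone the members lay below 0 more often than above it in all 4 diets with the arrays turned and all fish kept. The exception was RSM + S with median centring (17 of 39). When 1 fish was left out, the number in CG + S fell to as low as 18 of 39. Under the dyes as stated, members lay below 0 more often only in SFM + S. In CG + S the mean was below 0 for 26 of 39 members (49.6% of all probes) and above 0 for 13 (50.4%). For HBM + S it was below 0 for 25 (51.3%) and above 0 for 14 (48.7%), and for RSM + S below 0 for 25 (48.6%) and above 0 for 14 (51.4%). SFM + S had 34 members below 0 (51%) and 5 above (49%). Read as stated, the number below 0 was 18 for CG + S (52.4% of all probes) and 17 for HBM + S (52.8%). It was 13 for RSM + S (52.8%) and 22 for SFM + S (53.1%). Below 0 in 4 of 4 fish were 7 members in SFM + S (17.9%, against 4.68% of all probes), 6 in HBM + S (15.4%, against 5.83%), 3 in CG + S (7.69%, against 6.25%) and 1 in RSM + S (2.56%, against 6.87%). As the dyes are stated, the numbers were 6 for SFM + S (15.4%, against 17.9% of all probes), 6 for HBM + S (15.4%, against 18.2%), 1 for CG + S (2.56%, against 10.5%) and 4 for RSM + S (10.3%, against 14.1%), so that no share was above that of all probes. The 7 members below 0 in all SFM + S fish with the arrays turned were apolipoproteins A-I-1, A-II and B, acyl-CoA desaturase, delta-6 fatty acyl desaturase, N-acylsphingosine amidohydrolase 2 and phospholipase B1.

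**Figure D3:**
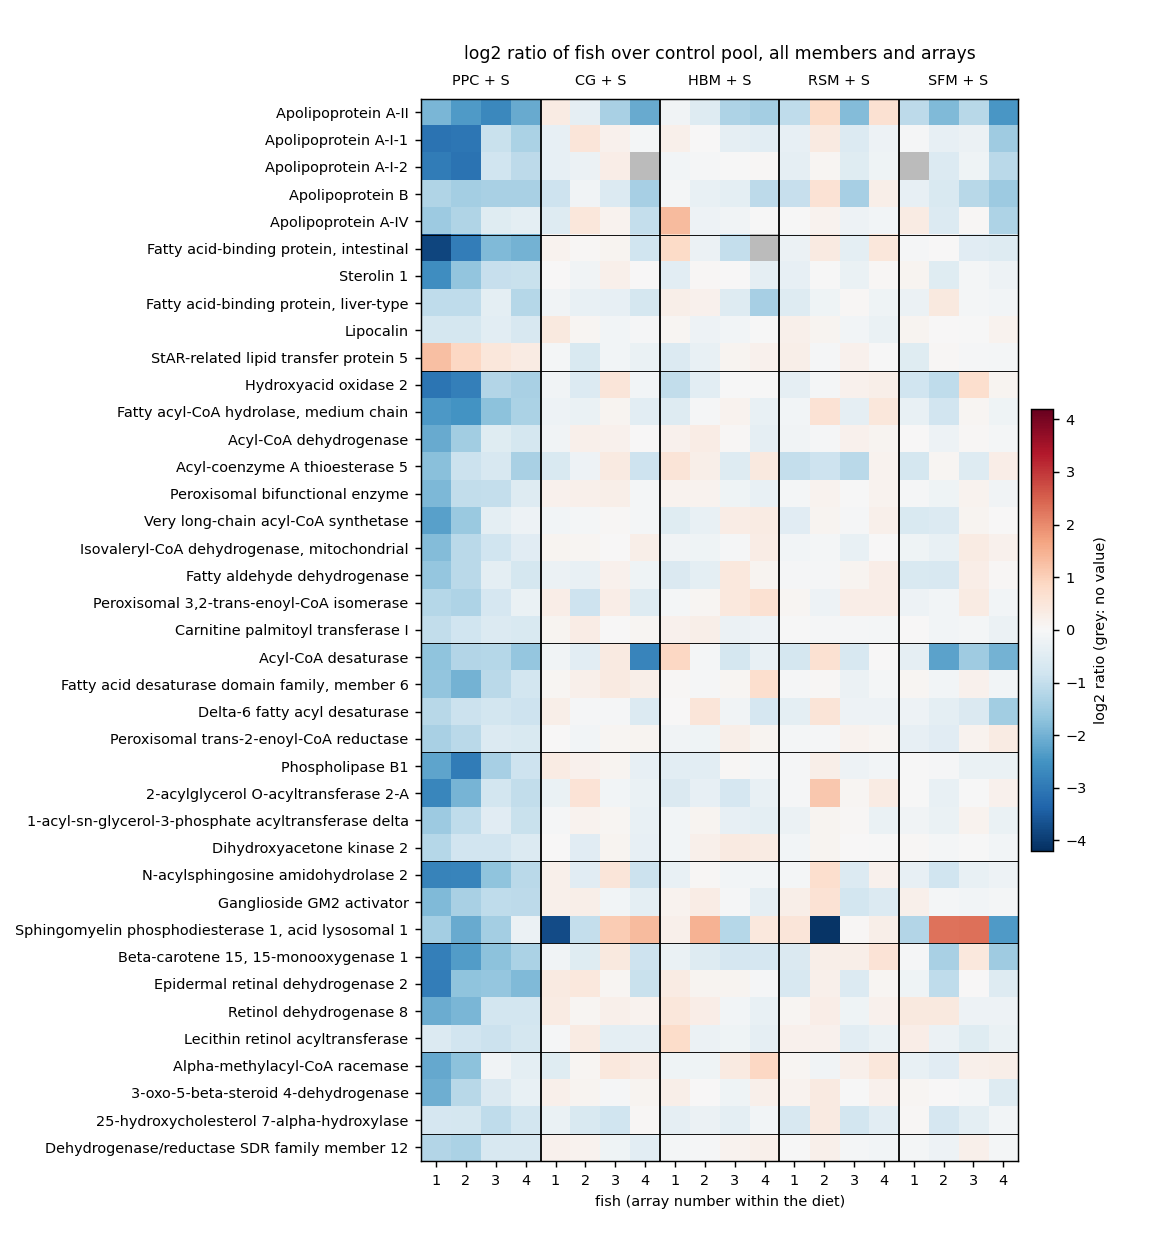
Heat map of the log2 ratio of fish over pool for the 39 genes (lines, in the order of the plot of PPC + S fish) and the 20 arrays (columns, by diet), from blue (lower than the pool) to red (higher). Grey cells have no value. The 4 PPC + S columns are blue for 38 of the 39 genes, and sphingomyelin phosphodiesterase 1 ranges from -4.11 to 2.30 in the other diets.

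The mean of the 4 other diets was tested against 0 in 1 limma fit of 16 arrays, to see whether a change was shared by them. Both limits were passed by 0 members (0.00583% of all probes passed), and by 0 with the dyes as stated. At an unadjusted p under 0.05 limma called 1, apolipoprotein A-II (0.0933% of probes). The mean lay below 0 for 31 of 39 members (50.1% of all probes) and above 0 for 8 (49.9%). It lay below 0 for 25 to 30 members in the other settings with turned arrays, but for 15 with the dyes as stated (54.2% of all probes). The lowest was that of apolipoprotein A-II at -0.94 ± 0.22 (SE, adjusted p = 0.252 from limma), with 13 of 16 fish below the pool. Next were acyl-CoA desaturase at -0.63 ± 0.22 (adjusted p = 0.483 from limma, 12 of 16 fish) and apolipoprotein B at -0.63 ± 0.15 (adjusted p = 0.257 from limma, 14 of 16 fish). The hydroxylase of 25-hydroxycholesterol had -0.35 ± 0.09 (adjusted p = 0.303 from limma, 13 of 16 fish). These 4 genes were singled out after their values were seen. None of them can be said to have changed in these diets by the adjusted test. Their means had the opposite sign when the dyes were left as stated, at 0.44 for apolipoprotein A-II, 0.31 for acyl-CoA desaturase, 0.29 for apolipoprotein B and 0.037 for the hydroxylase. Over the 16 fish, apolipoprotein A-II averaged -0.50 on arrays 1 and 2 of each diet and -1.38 on the turned arrays 3 and 4, and apolipoprotein B -0.34 and -0.91.

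Among these diets the 4 genes had their lowest means in SFM + S or CG + S. Apolipoprotein A-II had -1.11, -1.86, -1.17 and -2.44 in SFM + S fish 1 to 4, with a mean of -1.65 ± 0.63 (SD, n = 4, adjusted p = 0.553 from limma). All 4 fish were lower than the pool by more than 2-fold, and their range overlapped that of PPC + S. Its means were -0.88 ± 1.08 for CG + S, -0.85 ± 0.61 for HBM + S and -0.37 ± 1.29 in RSM + S, where fish 2 and 4 lay above the pool and fish 1 and 3 below it. Apolipoprotein B had -0.34, -0.64, -1.15 and -1.52 in SFM + S, with a mean of -0.91 ± 0.53, and -0.75 ± 0.53 for CG + S, -0.47 ± 0.44 for HBM + S and -0.38 ± 0.96 for RSM + S. The RSM + S fish lay on both sides of the pool, as they did for apolipoprotein A-II, with 0.60 and 0.25 in fish 2 and 4 and -0.97 and -1.40 in fish 1 and 3. Acyl-CoA desaturase had -0.38, -2.24, -1.49 and -1.99 in SFM + S, with a mean of -1.53 ± 0.83 (adjusted p = 0.953 from limma), close in size to that in PPC + S. Its mean of -0.75 ± 1.40 in CG + S rested on fish 4 at -2.79, since the other 3 fish lay between -0.43 and 0.39. Delta-6 fatty acyl desaturase averaged -0.67 ± 0.55 in SFM + S and was just under the fold limit. Taken as stated by the dyes, the SFM + S means were 0.16 for apolipoprotein A-II, 0.43 for apolipoprotein B and 0.21 for acyl-CoA desaturase.

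**Figure D4:**
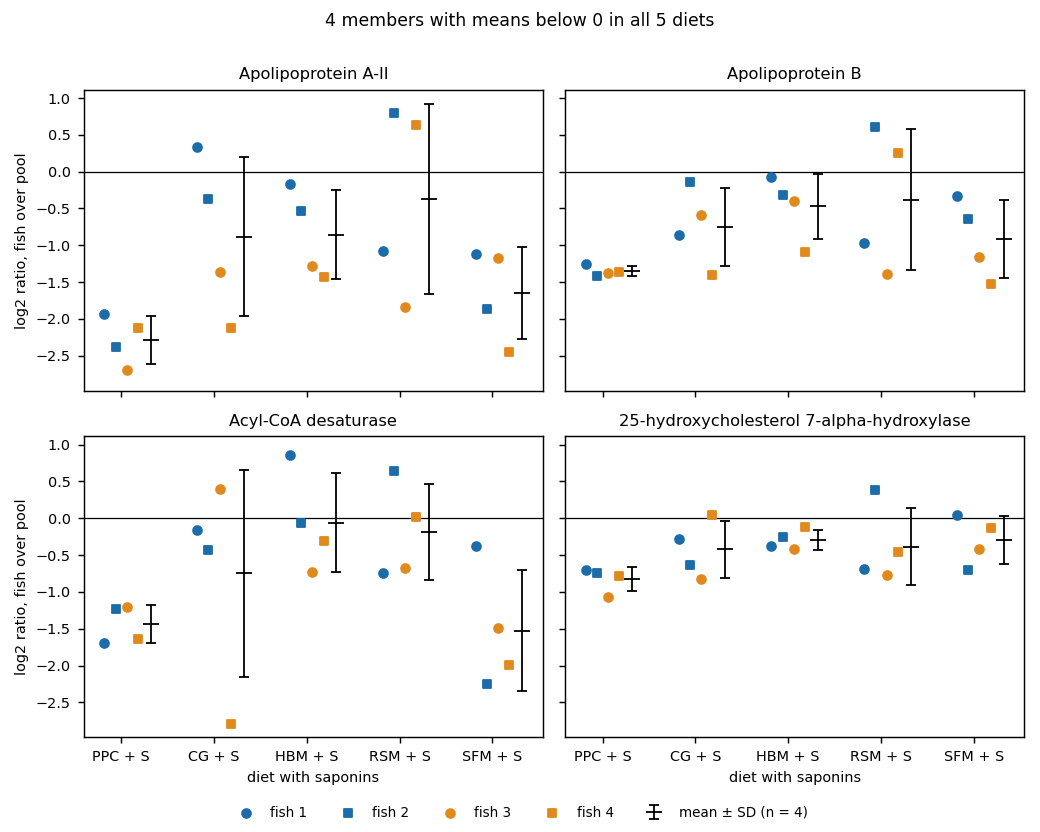
Log2 ratio of fish over pool (vertical axis) in the 5 diets for 4 genes, with single fish as points and the mean ± SD (n = 4) as a black bar. Apolipoprotein A-II and acyl-CoA desaturase reach means of -1.65 and -1.53 in SFM + S, against -2.28 and -1.44 in PPC + S, and the RSM + S fish lie on both sides of 0.

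Other values over 1.6-fold in these diets were few and uneven. In RSM + S, acyl-coenzyme A thioesterase 5 had -1.0, -0.87, -1.14 and 0.15, with a mean of -0.72 ± 0.59 (adjusted p = 0.751 from limma). Sphingomyelin phosphodiesterase 1 averaged -0.83 ± 2.20 in RSM + S, a mean set by fish 2 at -4.11, the other 3 fish being between 0.05 and 0.51. Without regard to a test, members over 1.6-fold numbered 3 for CG + S (0.338% of all probes), 1 for HBM + S (0.437%), 2 for RSM + S (0.601%) and 3 for SFM + S (0.437%). Values were missing for intestinal fatty acid-binding protein on 1 array of HBM + S, and for apolipoprotein A-I-2 on 1 array each of CG + S and SFM + S, which the fits dropped. Intestinal fatty acid-binding protein, the gene with the lowest PPC + S mean, had means in the other diets between -0.26 in SFM + S and 0.05 in RSM + S.

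A moderated F test in limma asked whether the members differed among the 4 other diets. None did at an adjusted p under 0.05 (0.0233% of all probes did). At an unadjusted p under 0.05 by this F test 1 did (2.56% of the members), a smaller share than the 5.02% of all probes that passed. That gene was 2-acylglycerol O-acyltransferase 2-A, with an adjusted p of 0.912. It had -0.62, -0.34, -0.71 and -0.33 in HBM + S, all below the pool, with a mean of -0.50 ± 0.20, against a mean of 0.38 ± 0.53 in RSM + S, where fish 1 was at -0.06 and fish 2 at 1.13. The ranges of the 2 diets did not overlap, and the share of all probes whose ranges part in this way was not counted. Read as stated, the values of fish 3 and 4 change sign, which puts the HBM + S fish on both sides of the pool. Beta-carotene 15, 15-monooxygenase 1 likewise had its 4 fish below the pool in HBM + S, with a mean of -0.56 ± 0.19 (adjusted p = 0.669 from limma), and 0.12 ± 0.52 in RSM + S. Its HBM + S mean had the opposite sign with the dyes as stated, where all 4 retinoid genes lay between 0.10 and 0.29.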

How the data were processed

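The distal intestine of 20 salmon was profiled on 2-colour arrays. The authors deposited scanner intensities (median brightness of each spot and its local background, Cy3 and Cy5), which per the file headers came from Feature Extraction 10.7.1.1, while the submitters' processing notes name 9.6.1 and the methods name another program. Deposited beside them were log10 ratios, which the scanner software had corrected and dye-normalized. The authors also deposited log2 ratios after Lowess normalization.

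Spots with an outlier flag (2.02% to 3.81% of probe spots per array) were left out, the background was corrected with normexp (offset 50), ratios were normalized by loess within arrays, and each probe's 2 spots averaged (R 4.3.3, limma 3.58.1). A probe was tested when its signal in 1 channel or more exceeded the background well on 3 of the 4 arrays of any diet, which kept 17143 of 21322 probes and all 39 members. In each channel of an array 58.9% to 81.8% of probes were well above background. The number of arrays limits the precision.

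The members and lists were chosen with earlier results of these data known. Every member was named, and values of single fish are given for the 2 members of each sub-function with the largest PPC + S change, the member listed up, any past the limits elsewhere, and the member found by accession. Further genes were named after their values were seen. The direction of the arrays and the use of median brightness were decided after the files had been seen. A wider list of lipid genes and sequences were not analysed here, since no table used here names the probes. The alternatives concerned background, outlier spots, centring, source of the ratios, dyes, filter, test, fit and each fish left out. The tests were tested on simulated data. Python 3.11.15 with matplotlib 3.10.9 was used for the figures.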

Additional observations from a re-analysis of the deposited data

Results flagged for a closer look

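For 5 members all 4 fish of 2 diets lay on opposite sides of 0, in 6 pairs of diets, and none of these differences was tested. The share of all probes with such a pair was not counted. In PPC + S, whose values chose the members, 38 lay below 0 in 4 of 4 fish. A pair with PPC + S therefore needed only the 4 fish of another diet on the other side. In CG + S 4 members were above 0 in 4 of 4 fish (10.3%, against 5.97% of all probes). With the dyes as stated 3 of 39 members were above 0 in all CG + S fish, against 11.7% of all probes. No member then lay on 1 side of 0 in all PPC + S fish, so no pair with PPC + S would remain. The values that follow are those with the arrays turned. StAR-related lipid transfer protein 5 averaged 0.74 in PPC + S and -0.28 in CG + S, where its 4 fish lay between -0.65 and -0.08. The other PPC + S pairs ran the opposite way, with CG + S fish all above the pool. Fatty acid desaturase domain family, member 6 averaged -1.39 in PPC + S and 0.23 in CG + S. Retinol dehydrogenase 8 averaged -1.39 in PPC + S and 0.20 in CG + S. Isovaleryl-CoA dehydrogenase averaged -1.07 in PPC + S and 0.12 in CG + S. Carnitine palmitoyl transferase I averaged -0.78 in PPC + S and 0.14 in CG + S. The last gene also parted CG + S, at 0.14, from RSM + S, at -0.04, a difference between small values. A single fish stood apart from the other 3 by Dixon's criterion in 5 groups, among those of the 39 members in 5 diets with all 4 values and of the medians over the members. By chance about 1 in 20 groups would be passed, and the 5 were a smaller share of the groups looked at than this. None of the 5 was in PPC + S. Sphingomyelin phosphodiesterase 1 had -4.11 in RSM + S fish 2, with the other 3 fish between 0.05 and 0.51. Apolipoprotein A-IV had 1.32 in HBM + S fish 1, with the others between -0.20 and -0.03. Intestinal fatty acid-binding protein had -0.85 in CG + S fish 4, with the others between 0.06 and 0.15. The acyltransferase 2-acylglycerol O-acyltransferase 2-A had 0.58 in CG + S fish 2, with the others between -0.27 and -0.13. Ganglioside GM2 activator had 0.22 in SFM + S fish 1, with the others between -0.11 and -0.08.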

How the results depend on the processing

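The count of 0 members past the limits in CG + S, HBM + S, RSM + S, SFM + S and their mean, and of 0 differing among them, was the same with a normexp offset of 0, with outlier spots kept, with median centring, with the scanner software's log ratios, with the authors' processed values, with the dyes as stated, with either other filter, with a dye term, with 1 fit of all 20 arrays (single diets only), and after leaving out each fish in turn (0 to 0). Over all probes these counts were 3, 2, 3, 2, 1 and 4, and they lay between 0 and 8 in the other settings with adjusted p and all 4 fish but for the dyes as stated (0, 62, 0, 24, 13 and 28) and the block (32 by F). Without adjustment limma gave 1, 1, 1, 3, 1 and 1, and the methods' t-test gave 3 in SFM + S, with its share of all probes not given here. With the dyes as stated 10 members had an adjusted p under 0.05 for the mean of the 4 diets, all under 1.6-fold. The share of all probes under this p alone is not given, so the 10 cannot be set against it. The PPC + S median was -0.80 with median centring, which left 26 members over 1.6-fold, and between -1.33 and -1.14 in the other turned settings. It was -0.40 with the dyes as stated, with 9 members over 1.6-fold and 4 of 39 members of opposite sign. In that reading fish 3 and 4 change sign and offset fish 1 and 2. With each PPC + S fish left out it ranged from -1.35 to -0.90, with 37 to 39 members over 1.6-fold. For these alternatives the share of all probes over 1.6-fold in PPC + S is not given, so the counts cannot be set against it. With the dyes as stated the values of 4 members turned: in the mean of the 4 diets 0.44 for apolipoprotein A-II, 0.29 for apolipoprotein B, 0.31 for acyl-CoA desaturase and 0.037 for 25-hydroxycholesterol 7-alpha-hydroxylase, and in SFM + S 0.16, 0.43 and 0.21 for the first 3. Under the other alternatives these kept their sign. The cause was not tested. Members below 0 in SFM + S numbered 22 to 33 in the other settings and 30 to 35 with a fish left out, and those in RSM + S 13 to 26 (17 with median centring) and 20 to 26. In CG + S they numbered 18 to 26 in both cases. Those in HBM + S numbered 17 to 25 and 21 to 25. These counts, and those of the sub-functions, of 4 of 4 fish and of the mean of the diets, were compared between settings after the data had been seen. Same-numbered arrays of different diets share their number and also their direction, since arrays 3 and 4 were turned in every diet. Deviations of 40 same-numbered pairs correlated at 0.05 to 0.62, 39 over 0.1, and 19 of 20 arrays correlated best with their own number. What the pairs have in common was not tested. The replicate block left 0 members called in each test.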
